A study of Homo sapiens with 10 samples.

Results

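The 65 replication-dependent histone genes of the count tables were examined in HAP1 cells that lacked the DNA glycosylases OGG1 and MUTYH, and in HAP1 cells treated with H2O2. Members were defined by symbol, as the genes H1-1 to H1-5 and every H2AC, H2BC, H3C and H4C gene among 59453 genes. The set was chosen with earlier results of these data known. They comprised 5 H1, 16 H2A, 17 H2B, 13 H3 and 14 H4 genes. In GENCODE v44 on GRCh38, 54 of them lie on chromosome 6 between positions 25723397 and 27893891 and 11 on chromosome 1 between 149782689 and 149887965.

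HAP1 is a human cell line with a nearly haploid genome whose parent, KBM-7, came from a leukaemia. WT, MUTYH knockout, OGG1 knockout and double knockout (DKO) cells were each represented by 2 untreated libraries from 2 clones, namely WT clones 2 and 11, MUTYH knockout clones 7 and 8, OGG1 knockout clones 1 and 22 and DKO clones 4 and 14. The same WT clones 2 and 11 were also sequenced 24 h after treatment with 100 µM H2O2. The knockouts were made with CRISPR-Cas9. Both DKO clones were derived from a single OGG1 knockout clone, so they do not stand for independent losses of OGG1. The paper's supplement calls this parent OGG1 clone 2. Its product number resembles the name of sequenced clone 22, but that link is not stated. With 2 clones per genotype, a difference between genotypes and a difference between clones cannot be fully told apart, and P values measure the spread between these clones.

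Replication-dependent histone genes supply the core histones H2A, H2B, H3 and H4 and the linker histone H1 that package newly copied DNA, and their transcripts accumulate in S phase. Their mRNAs normally carry no poly(A) tail and end just after a conserved stem-loop that is bound by the stem-loop binding protein SLBP. Some of these genes can also give polyadenylated transcripts that run past the stem-loop.

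A stem-loop of 16 bases, searched as the arms GGNNC and GNNCC around the loop TTTTNA, was found near the annotated end of 62 of the 65 genes. The form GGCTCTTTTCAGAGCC occurred in 38 members and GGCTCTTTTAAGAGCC in 8, whereas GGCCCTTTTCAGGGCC (9 members) and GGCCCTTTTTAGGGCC (4 members) were seen in H4 genes alone. The sites below, read from GRCh38 with the stem-loop in capitals, belong to 5 members whose levels are described further on and show these forms. They lie on chromosome 6 at chr6:26124664-26124693 (H2AC6, plus strand), chr6:27132312-27132341 (H2BC11, minus strand), chr6:26270914-26270943 (H3C8, minus strand) and chr6:26285122-26285151 (H4C8, minus strand), and on chromosome 1 at chr1:149833027-149833056 (H4C14, plus strand).
H2AC6: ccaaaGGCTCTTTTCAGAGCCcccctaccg
H2BC11: ctaacGGCTCTTTTAAGAGCCacccatgtt
H3C8: aaaaaGGCTCTTTTAAGAGCCgcctacttt
H4C8: ccaaaGGCCCTTTTCAGGGCCgcccacttt
H4C14: ccaaaGGCCCTTTTTAGGGCCgaccacttg

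RefSeq promoters on GRCh38.p14, from 250 bases before to 50 bases after the start, were matched for 60 members and searched on both strands. The octamer ATTTGCAT, a binding motif of the factor POU2F1, was present in 14 of 17 H2B promoters (82.4%) and 11 of 15 H2A promoters (73.3%), against 1.8% of all 27305 promoters. It was found in 1 of 11 H3 promoters and in no H1 or H4 promoter. TATAAA was present in 68.3% of the members' promoters and in 12% of all promoters, and CCAAT in 85.0% and 35.7%, with H4 the exception at 3 of 12 promoters for CCAAT. The octamer and TATAAA do not overlap in the windows below, where both are in capitals. These H2B genes were among those higher in DKO. The windows lie on the minus strand at chr6:27132816-27132845 (H2BC11), chr6:27146878-27146907 (H2BC12), chr6:26216710-26216739 (H2BC8) and chr1:149886702-149886731 (H2BC21).
H2BC11: cttATTTGCATaagcgattctaTATAAAag
H2BC12: cttATTTGCATgagaggtcctaTATAAAaa
H2BC8: tttATTTGCATgaaaggccTATAAAaggag
H2BC21: ctaATTTGCATaaggtggtTATAAAagaat

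Total counts per library ranged from 22225091 to 22674964, so that 1 count was worth 0.045 CPM (library-size normalised counts, scaled by TMM factors of 0.967 to 1.01) in the smallest library. The mitochondrial share of counts was lowest in the treated libraries, at 3% and 3.38%, and highest in DKO clone 4, at 7.46%, and its part in the histone levels was not tested. OGG1 counts were 295 and 275 in WT, 27 in OGG1 knockout clone 1 and 254 in clone 22, and 215 and 223 in DKO, while MUTYH counts were 89 and 105 in WT, 101 and 83 in MUTYH knockout and 106 and 50 in DKO. A small deletion or insertion need not lower the transcript level, so these counts do not check the labels. BCR and ABL1, the partners of the KBM-7 fusion gene, summed to 44.6 to 64.1 CPM, and the 8 blood cell markers to 0.576 to 2.06 CPM.

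The members were weakly represented. In all, 12 of the 65 had no count in any of the 10 libraries, and 17 reached a mean of 1 CPM over the 8 untreated libraries. The expression filter left 26 members in the fit of the 8 untreated libraries, namely 1 H1, 5 H2A, 10 H2B, 4 H3 and 6 H4 genes, and 22 in the fit of the 4 WT libraries. The highest mean among the members that were not tested was 0.263 CPM. Below this, H1-4 and H1-3, the next most abundant linker histone genes after H1-2, averaged 0.167 and 0.0445 CPM.

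Per kilobase of the main annotated transcript, the H2B gene H2BC12 had the highest level at 15.6 CPM per kb, followed by the H4 gene H4C9 at 9.13 CPM per kb. H4C14 and H4C15 stood at 6.84 and 6.72 CPM per kb and H2AC11 at 6.37 CPM per kb. H1-2 reached 3.96 CPM per kb, and H3C15, the highest H3 gene, 2.66 CPM per kb. With the longest annotated transcript as the length, 6 of the 10 highest members stayed among the 10 highest, and H4C14 moved from rank 3 to rank 12. Near-identical copies cannot be separated in these counts. H4C14 and H4C15 differed by at most 3 counts in any library, H2AC18 and H2AC19 by at most 2 and H3C14 and H3C15 by at most 1, so the copies of a pair are not independent of each other. Counts of members below hold both copies, and the counts with each pair taken once are given beside the main ones.

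The annotated 3′ end accompanied the level in CPM, which is not corrected for transcript length. Members annotated past the stem-loop can be much longer. The longest transcript has 4137 bases in H2BC15, which runs past it, and 493 bases in H2AC11, which does not. The part of length in the values below was not tested. GENCODE v44 gives 13 members a transcript that runs more than 100 bases past the stem-loop, and 11 of these 13 passed the expression filter, with a median of 1.14 CPM over all 13. Of the 49 members whose transcripts end at the stem-loop, 15 passed, and their median was 0.111 CPM. The former took 38.9% of the members' summed CPM and the latter 60.8%. The 3 members in which no stem-loop was found did not pass. H2BC12, H4C9, H2AC11 and H1-2 are annotated to end at the stem-loop and were nevertheless among the most abundant members. How the RNA was selected for the libraries is not given in the sources used here, and its part in these levels was not tested.

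**Figure D1:**
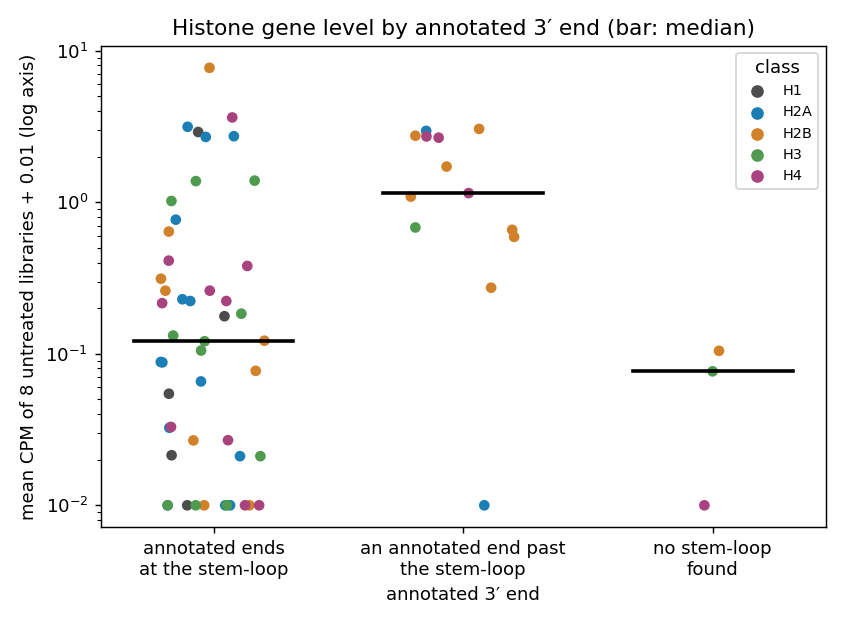
Mean level of each of the 65 genes over the 8 untreated libraries in CPM plus 0.01 on a log axis, by annotated 3′ end, with a bar at the median and colours for the histone class. Genes with an annotated end past the stem-loop have a median of 1.14 CPM and those ending at the stem-loop of 0.111 CPM, and both sets span a wide range. The levels are not divided by transcript length.

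The question of the genotype comparisons was whether loss of OGG1 and/or MUTYH changes transcript levels. The summed level of the 65 members was highest in DKO. It was 81.48 and 73.32 CPM in DKO clones 4 and 14, against 45.81 and 27.77 CPM in WT clones 11 and 2, 58.22 and 42.11 CPM in MUTYH knockout clones 7 and 8, and 42.61 and 44.13 CPM in OGG1 knockout clones 1 and 22. Both DKO libraries lay above the other 6 untreated libraries, and WT clone 2 lay below all others. The DKO mean of 77.4 ± 5.77 CPM (SD, n = 2) was 2.1 times the WT mean of 36.8 ± 12.8 CPM (SD, n = 2), and 1.69 times the level of WT clone 11 alone. In bulk libraries, more cells in S phase and more histone mRNA per cell cannot be told apart.

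**Figure D2:**
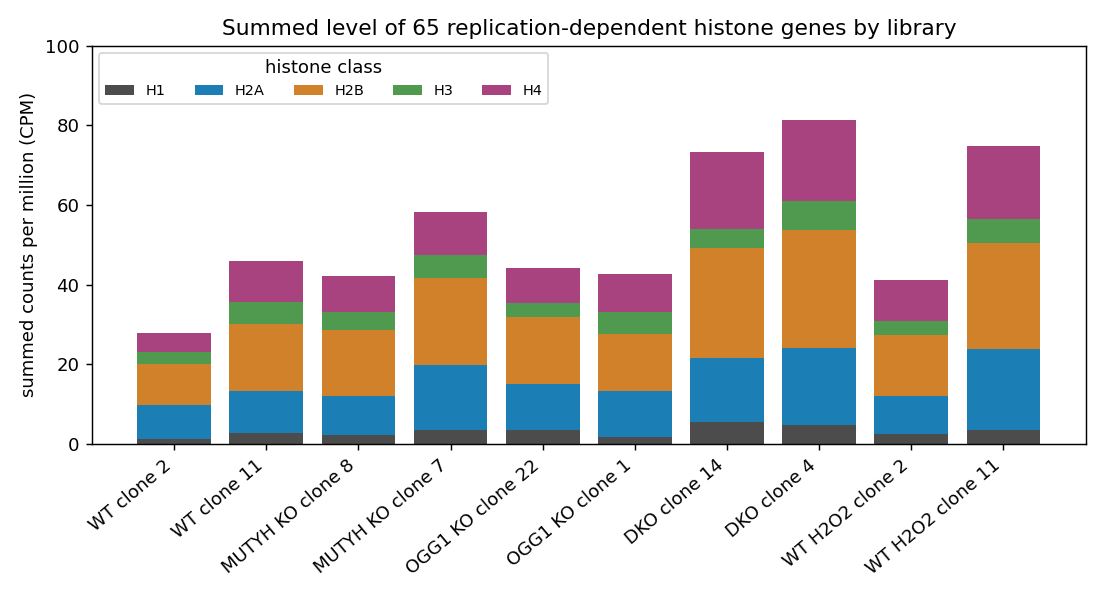
Summed CPM of the 65 replication-dependent histone genes in each library, stacked by histone class (linear axis from 0). Both DKO bars, at 81.48 and 73.32 CPM, exceed those of the other 6 untreated libraries, and the bar of treated WT clone 11 reaches 74.79 CPM.

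The ratio of DKO to WT is given by class without a test. H4 genes summed to 20.51 and 19.44 CPM in DKO and to 10.1 and 4.746 CPM in WT clones 11 and 2, a ratio of 2.69 between the means. H2B genes summed to 29.46 and 27.78 CPM in DKO and to 16.97 and 10.07 CPM in WT, a ratio of 2.12. The ratios were 2.61 for H1 and 1.85 for H2A, and 1.4 for H3, in which DKO clone 14 at 4.674 CPM lay below WT clone 11 at 5.494 CPM. H3 was the class in which the DKO and WT libraries overlapped. The ratios rest on the WT clone taken, being 1.98 for H4, 1.88 for H1, 1.69 for H2B, 1.68 for H2A and 1.09 for H3 without WT clone 2, and 4.21, 4.25, 2.84, 2.05 and 1.94 without WT clone 11.

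Individual genes were tested with edgeR's quasi-likelihood test, and by the criterion of the study a gene was called at an unadjusted P of 0.05 or less with a log2 fold change above 1 or below -1. In DKO against WT, 12 of the 26 tested members were called and all 12 were higher, whereas 1.77% of all 17881 genes tested were called and 1.24% were called higher. They were 1 of 1 H1 gene, 1 of 5 H2A, 6 of 10 H2B, 0 of 4 H3 and 4 of 6 H4 genes. The 6 H2B genes include H2BC7, which passed the expression filter only through its DKO counts. The log2 fold change was above 0 for 25 of the 26, against 50.2% of all genes, with a median of 0.99, against 0.00079 over all genes. No member, and 0% of all genes, passed a Benjamini-Hochberg (BH) adjusted p of 0.05 in edgeR. The unadjusted P was at most 0.05 for 14 members, against 2.94% of all genes, and for 13 members with DESeq2, which also passed none after adjustment. With near-identical pairs counted once, 11 of 23 signals were called, 3 of 5 for H4, and 22 of 23 were above 0. The count of 12 fell to 6 without WT clone 2 and to 7 without DKO clone 4.

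Libraries were also compared by their order, without a model. Both DKO libraries were above both WT libraries for 21 of the 26 members, against 13.1% of all genes, and above all 6 other untreated libraries for 15 of the 26, against 3.16% of all genes. With pairs counted once these were 19 and 13 of 23 signals. Each of these counts holds H2BC7, which passed the expression filter through DKO alone. Among the 8 untreated libraries, DKO clone 14 was the highest for 11 members and DKO clone 4 for 10. WT clone 2 was the lowest for 17.

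H2B genes were the largest set among the members called. H2BC11 measured 2.73 and 1.45 CPM in DKO clones 4 and 14, 0.665 and 0.577 CPM in WT clones 11 and 2, 0.877 and 0.532 CPM in MUTYH knockout clones 7 and 8, and 0.904 and 0.888 CPM in OGG1 knockout clones 1 and 22. Both DKO values exceeded the other 6, with a log2 fold change against WT of 1.75 (SE 0.459, unadjusted P = 0.00603 in edgeR). H2BC12, the most abundant member, measured 11.7 and 11.6 CPM in DKO, 7.18 and 4.3 CPM in WT clones 11 and 2, 9.37 and 6.52 CPM in MUTYH knockout and 4.88 and 6.08 CPM in OGG1 knockout. The DKO clones were alike and again above the rest, with a log2 fold change of 1.02 (SE 0.325, unadjusted P = 0.015 in edgeR). H2BC21 measured 4.7 and 4.98 CPM in DKO, 2.88 and 0.754 CPM in WT clones 11 and 2, 3.32 and 3.19 CPM in MUTYH knockout and 1.9 and 2.62 CPM in OGG1 knockout. Its log2 fold change of 1.41 (SE 0.553, unadjusted P = 0.0365 in edgeR) rested in large part on the low WT clone 2, without which it was 0.74.

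Some H2B genes with low counts were called as well. H2BC8 measured 0.985 and 1.23 CPM in DKO and between 0.361 and 0.693 CPM in the other 6 untreated libraries, with a log2 fold change of 1.39 (SE 0.431). H2BC18 measured 0.806 and 0.97 CPM in DKO, 0.266 CPM in each WT clone, 0.693 and 0.621 CPM in MUTYH knockout clones 7 and 8 and 0.497 and 0.533 CPM in OGG1 knockout clones 1 and 22. WT was thus below every knockout library for H2BC18, and its log2 fold change in DKO was 1.72 (SE 0.411). H2BC18 overlaps an unnamed gene on the same strand and FCGR1A on the opposite strand in the annotation. H2BC7 had 11 and 12 counts in DKO clones 4 and 14 and 2 and 1 counts in WT clones 11 and 2. No untreated library outside DKO held more than 8 counts of H2BC7. It thus passed the expression filter through DKO alone, and its place among the tested members rests on the group in which it is high. The ratio of DKO to WT was 7.65, with an exact 95% interval of 2.31 to 39.8 that covers counting error alone, and the gene overlaps unnamed genes on the same strand. H2BC15 was not called. It measured 3.54 and 3.22 CPM in DKO and 2.75 and 1.82 CPM in WT clones 11 and 2, with a log2 fold change of 0.57 (SE 0.325).

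The called H4 genes, 4 by name and 3 as separate signals, were higher in both DKO clones than in each of the other 6 untreated libraries. H4C9 measured 5.73 and 6.39 CPM in DKO, 2.75 and 1.69 CPM in WT clones 11 and 2, 3.51 and 3.37 CPM in MUTYH knockout and 2.62 and 2.93 CPM in OGG1 knockout. Its log2 fold change of 1.45 (SE 0.315, unadjusted P = 0.00219 in edgeR) was 1.14 without WT clone 2. H4C14, which shares its reads with H4C15, measured 4.88 and 4.89 CPM in DKO, 2.39 and 0.754 CPM in WT clones 11 and 2, 2.26 and 1.91 CPM in MUTYH knockout and 2.26 and 2.31 CPM in OGG1 knockout. Apart from the low WT clone 2, the libraries outside DKO were close together, and the log2 fold change was 1.63 (SE 0.496) for H4C14 and 1.65 (SE 0.507) for H4C15. H4C8 measured 2.69 and 1.72 CPM in DKO, 0.886 and 0.665 CPM in WT, 1.06 and 0.576 CPM in MUTYH knockout and 1.13 and 0.355 CPM in OGG1 knockout, with a log2 fold change of 1.5 (SE 0.595).

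Among linker histone genes, H1-2 was the only one tested. It measured 4.43 and 5.16 CPM in DKO clones 4 and 14, 2.57 and 1.02 CPM in WT clones 11 and 2, 3.28 and 1.99 CPM in MUTYH knockout clones 7 and 8, and 1.45 and 3.29 CPM in OGG1 knockout clones 1 and 22. DKO lay above the rest, with a log2 fold change of 1.42 (SE 0.558, unadjusted P = 0.0373 in edgeR), which was 0.89 without WT clone 2. Of the H2A genes, H2AC6 measured 6.09 and 3.39 CPM in DKO, 2.48 and 0.887 CPM in WT, 4.29 and 1.86 CPM in MUTYH knockout and 2.44 and 2.18 CPM in OGG1 knockout. MUTYH knockout clone 7 exceeded DKO clone 14 here, and the log2 fold change against WT was 1.49 (SE 0.606, unadjusted P = 0.0414 in edgeR). H2AC6 overlaps an unnamed gene on the same strand. H2AC19 and its near-identical copy H2AC18 had log2 fold changes of 0.96 (SE 0.384) and 0.95 (SE 0.364), just under the limit of 1. H2AC11 measured 3.76 and 3.31 CPM in DKO and 3.19 and 2.17 CPM in WT, with a log2 fold change of 0.40 (SE 0.349).

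No H3 gene was called in DKO against WT. H3C10 measured 0.448 and 0.485 CPM in DKO, between 0.709 and 0.266 CPM of WT clones 11 and 2, with a log2 fold change of -0.06 (SE 0.529), the only value below 0 among the 26. H3C14 and H3C15 each measured 2.15 CPM in DKO clone 4 and 1.15 and 1.19 CPM in DKO clone 14, while WT clone 11 stood at 1.55 and 1.51 CPM and WT clone 2 at 0.887 CPM for both. Their log2 fold changes were 0.44 (SE 0.503) and 0.48 (SE 0.496), and both turned below 0 without DKO clone 4, at -0.10 and -0.02. H3C8 measured 2.15 and 1.01 CPM in DKO and 0.975 and 0.577 CPM in WT, with a log2 fold change of 1.03 (SE 0.56, unadjusted P = 0.107 in edgeR).

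**Figure D3:**
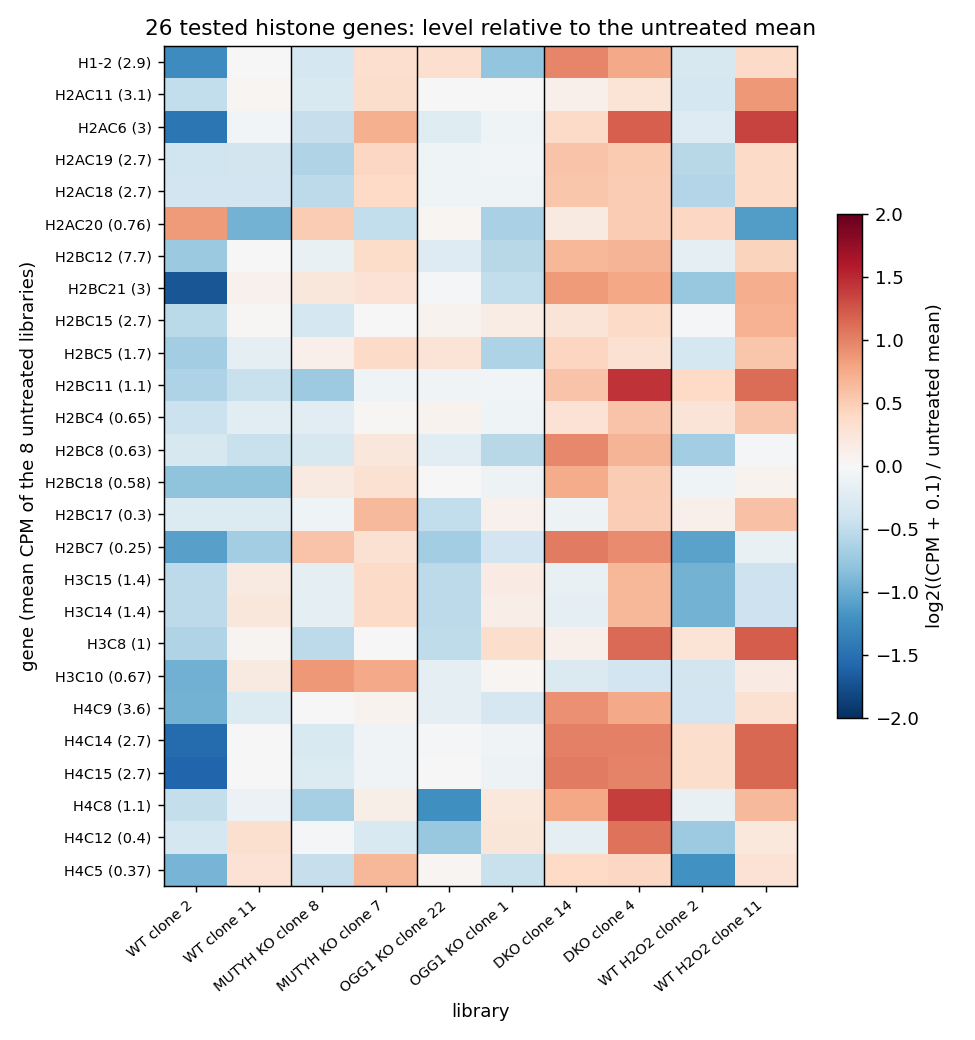
Level of the 26 tested genes (vertical axis, with mean CPM over the 8 untreated libraries) in the 10 libraries (horizontal axis), as log2 of CPM plus 0.1 relative to the mean over the 8 untreated libraries. DKO clones 14 and 4 hold the highest untreated value for 11 and 10 genes and WT clone 2 the lowest for 17.

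Features that were not used to choose the genes are given here for called and uncalled members as a description, without a test. Of the 12 members called in DKO, 7 (6 with pairs counted once) had an annotated end past the stem-loop, 7 had the octamer in the promoter and 4 lay on chromosome 1. Of the 14 tested members not called, 4 had such an end, 4 had the octamer and 5 lay on chromosome 1. H1-2, H2BC12, H2BC8, H2BC7 and H4C9, which were called, end at the stem-loop in the annotation, so higher levels in DKO were seen with both kinds of end.

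Fewer members were called on loss of a single glycosylase. In MUTYH knockout against WT, 3 of 26 members were called, all higher, whereas 1.19% of all genes were called and 0.408% were called higher. H2BC18 had a log2 fold change of 1.28 (SE 0.419), and H2BC7, with 6 and 8 counts in MUTYH knockout clones 7 and 8, a ratio to WT of 4.65 with an exact 95% interval of 1.3 to 25.2 for counting error. H3C10 measured 1.11 and 1.2 CPM in MUTYH knockout clones 7 and 8, above every other library, with a log2 fold change against WT of 1.23 (SE 0.5). No member passed the BH adjustment in edgeR, against 0.00559% of all genes, or in DESeq2. The unadjusted P was at most 0.05 for 3 members in edgeR, against 1.72% of all genes, and for 0 in DESeq2. No member was called without WT clone 2 or without MUTYH knockout clone 8, 1 was called without MUTYH knockout clone 7, and 7 were called without WT clone 11.

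In OGG1 knockout against WT no member was called in edgeR, against 1.67% of all genes, and none reached an unadjusted P of 0.05 in edgeR, against 2.74% of all genes, or in DESeq2. BH adjustment left 0% of all genes. The summed level was 1.18 times that of WT and 0.947 times that of WT clone 11 alone. The members' log2 fold changes lay between -0.55 and 0.94, with H2BC18 the highest. With WT clone 2 as the only WT library, 3 members were called.

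The 4 genotypes also allowed each loss to be compared over 4 libraries a side. The 4 OGG1-lacking libraries are not independent, since both DKO clones share a single loss of OGG1. In the OGG1-lacking against the OGG1-proficient libraries, 1 of 26 members was called, H2BC11 with a log2 fold change of 1.05 (SE 0.327), against 1.57% of all genes called and 1.05% called higher. This count was 0 without WT clone 2, MUTYH knockout clone 8 or DKO clone 4 and 5 without WT clone 11. In the MUTYH-lacking against the MUTYH-proficient libraries, 2 members were called, H2BC18 with a log2 fold change of 1.03 (SE 0.284) and H2BC7 with 2.14 (SE 0.433), against 0.721% of all genes called and 0.431% called higher. The fitted value of H2BC7 rests on few counts, and the gene passed the expression filter only through its DKO counts. This count was 1 without MUTYH knockout clone 7, 4 without MUTYH knockout clone 8 or OGG1 knockout clone 22 and 8 without WT clone 11. No member passed the BH adjustment in either comparison with edgeR or DESeq2, and in edgeR 0.00559% and 0% of all genes did. An unadjusted P of 0.05 or less was found for 5 members with OGG1 loss, against 3.79% of all genes, and for 6 with MUTYH loss, against 1.62%, in edgeR, and for 4 and 5 members in DESeq2.

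DKO was then set against each single knockout, in the same fit, so that the WT libraries still enter the estimate of the spread. The OGG1 knockout libraries may include the parent of both DKO clones. Against OGG1 knockout, 6 of 26 members were called, all higher in DKO, whereas 1.44% of all genes were called and 1.06% were called higher. They were H2BC11, H2BC12, H2BC7, H2BC8, H4C8 and H4C9, with log2 fold changes of 1.09 for H2BC12, 1.13 for H4C9, 1.22 for H2BC11, 1.38 for H2BC8 and 1.56 for H4C8, and a ratio of 4.59 for H2BC7 with an exact 95% interval of 1.71 to 15.5 for counting error. The count was 3 without OGG1 knockout clone 1. The 6 members include H2BC7, which passed the expression filter through DKO alone. Both DKO libraries were above both OGG1 knockout libraries for 20 of the 26 members, against 12.4% of all genes. Against MUTYH knockout, 4 members (3 with pairs counted once) were called higher in DKO and 1 lower, against 1.99% of all genes in either direction, 1.49% higher and 0.492% lower. H2BC11 was higher by 1.57 (SE 0.455), H4C8 by 1.43 (SE 0.593) and H4C14 and H4C15 by 1.23 (SE 0.488 and 0.498) on the log2 scale. H3C10 was lower in DKO, with a log2 fold change of -1.29 (SE 0.502). No member was called in this comparison without DKO clone 4 or without MUTYH knockout clone 8, 2 were called without either OGG1 knockout clone and 3 without DKO clone 14. No member passed the BH adjustment in either comparison with edgeR or DESeq2, against 0% of all genes for OGG1 knockout and 0.00559% for MUTYH knockout in edgeR. In each comparison 6 members reached an unadjusted P of 0.05 in edgeR, against 2.62% and 3.43% of all genes, and 5 did in DESeq2.

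Whether the change on loss of MUTYH differed between OGG1 knockout and WT backgrounds was tested by the interaction of both losses. No member was called in edgeR, against 2.0% of all genes, and none reached an unadjusted P of 0.05 in edgeR, against 2.62%, or in DESeq2. BH adjustment left 0.00559% of all genes and no member. A double loss that differs from the sum of both single losses was thus not shown for any member, though 2 members were called without WT clone 2 and 1 without WT clone 11 or OGG1 knockout clone 1.

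**Figure D4:**
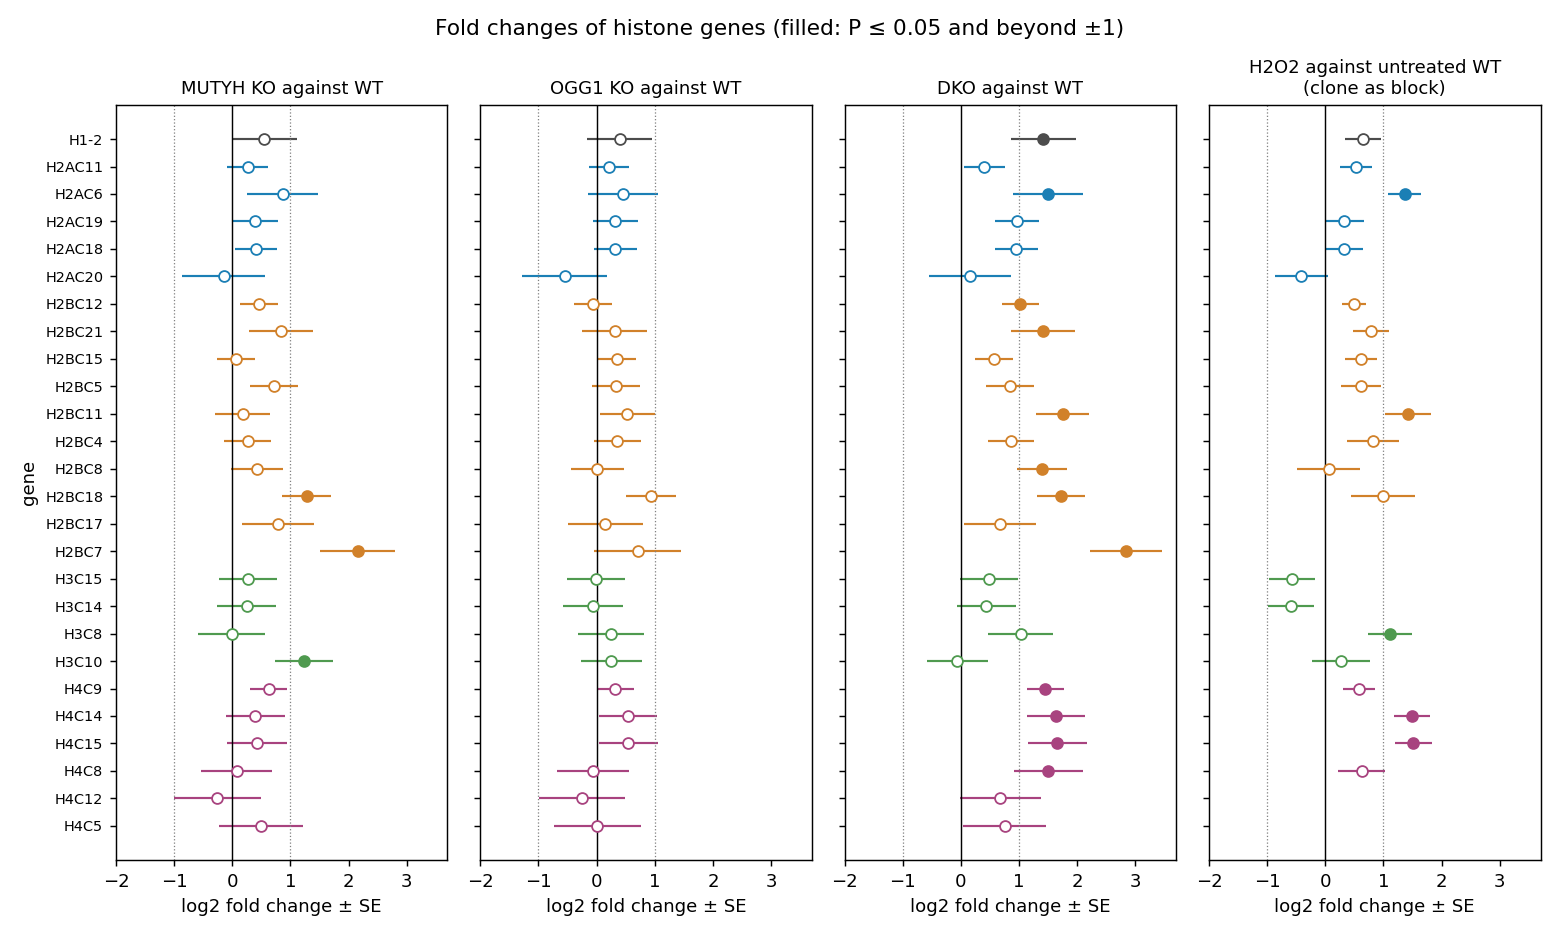
Log2 fold change ± SE of the tested genes in MUTYH knockout, OGG1 knockout and DKO against WT (26 genes) and in H2O2-treated against untreated WT with clone as a block (22 genes), coloured by class. Filled points passed the criterion for a call, 12 in DKO, 3 in MUTYH knockout, 0 in OGG1 knockout and 5 after H2O2.

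The treatment comparison asked how WT cells respond to oxidative stress. The summed level of the 65 members was higher after H2O2 in both clones, at 41.14 CPM treated against 27.77 CPM untreated in clone 2 and 74.79 against 45.81 CPM in clone 11. The ratios within a clone were 1.48 and 1.63. Treated clone 2 nevertheless stayed below untreated clone 11, so the treated and untreated libraries overlapped. The order of the classes differed between the clones. In clone 2 the ratio was 2.19 for H4, 1.97 for H1, 1.54 for H2B, 1.1 for H2A and 1.08 for H3, and in clone 11 it was 1.92 for H2A, 1.82 for H4, 1.57 for H2B, 1.32 for H1 and 1.06 for H3. With near-identical pairs counted once, the ratios of clones 2 and 11 were 1.23 and 1.21 for H3, 1.17 and 1.97 for H2A and 1.84 and 1.69 for H4, and in clone 2 H1 was then above H4 and H2A below H3.

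Of the 22 members tested, 1 was called without regard to clone, against 1.75% of all genes called and 0.741% called higher, and 5 were called with clone as a block, against 2.78% of all 16997 genes. The 5 members, 4 with pairs counted once, were all higher, against 1.19% of all genes called higher in that fit. Without the block no member and 0% of all genes passed the BH adjustment in edgeR, no member passed it in DESeq2, and 1 member reached an unadjusted P of 0.05 in each, against 7.63% of all genes in edgeR. With the block 3 members passed the adjustment, against 2.57% of all genes, and 8 reached an unadjusted P of 0.05, against 20.1%. The blocked fit had 1 residual degree of freedom. Treated exceeded untreated in both clones for 15 of the 22 members, against 34.0% of all genes, and fell short in both for 3. Both treated libraries were above both untreated ones for 6 of the 22, against 21.5% of all genes. With pairs counted once these were 14 and 5 of 19 signals. The 15 and the 6 members both include H2BC18, as do the counts with pairs taken once. H2BC18 had 6 counts in each untreated WT library and 13 and 11 in treated clones 11 and 2. It thus passed the expression filter of this fit through the treated libraries alone, where it is high. Without the block, no member was called when untreated WT clone 2 or treated WT clone 11 was left out and 6 when untreated WT clone 11 was.

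H4C14 rose from 0.754 to 3.05 CPM in clone 2 and from 2.39 to 5.41 CPM in clone 11. The blocked log2 fold change of H4C14 was 1.5 (SE 0.309, edgeR adjusted p = 0.0271) and that of its copy H4C15 1.52 (SE 0.315, edgeR adjusted p = 0.0279). Ignoring clone, the edgeR adjusted p was 0.638 for both. H2AC6 went from 0.887 to 2.14 CPM in clone 2 and from 2.48 to 6.73 CPM in clone 11. This gene had a blocked log2 fold change of 1.36 (SE 0.287, edgeR adjusted p = 0.0289), and without the block the edgeR adjusted p was 0.657. These 3 genes, 2 of them 1 signal, were the members past the BH adjustment.

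H2BC11, the member called with and without the block, went from 0.577 to 1.27 CPM in clone 2 and from 0.665 to 2.16 CPM in clone 11. Both treated values were above both untreated ones, with a log2 fold change of 1.45 (SE 0.435, edgeR adjusted p = 0.638) without the block and 1.43 (SE 0.396, edgeR adjusted p = 0.0781) with it. H3C8 went from 0.577 to 1.14 CPM in clone 2 and from 0.975 to 2.29 CPM in clone 11, with a blocked log2 fold change of 1.11 (SE 0.376, edgeR adjusted p = 0.133). H3C14 and H3C15 went the other way in both clones without passing the test. H3C14 went from 0.887 to 0.636 CPM in clone 2 and from 1.55 to 0.968 CPM in clone 11, a blocked log2 fold change of -0.60 (SE 0.396, edgeR adjusted p = 0.43), and H3C10 had 0.27 (SE 0.502).

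H2BC12 and H2BC8, higher in DKO, had blocked log2 fold changes of 0.50 (SE 0.211) and 0.06 (SE 0.543) after H2O2, and H1-2 and H4C9 had 0.64 (SE 0.313) and 0.58 (SE 0.278). DKO and treated WT were compared with the same untreated WT libraries, so these values are given side by side only.

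The genes that make, process and remove histone mRNA were examined from lists of 14 transcription genes, 20 genes of 3′ processing and 10 of decay. None of them was called in DKO against WT or after H2O2, with or without the block. Of all genes, 1.77% were called in DKO, 1.75% after H2O2 without the block and 2.78% with it. At these shares few calls would be found in lists of this size in any case. In DKO against WT the medians of their log2 fold changes were -0.04, -0.03 and -0.05. After H2O2 with the block they were 0.11, 0.18 and 0.15, with 11 of 14, 16 of 20 and 8 of 10 genes above 0, against a median of 0.0016 over all genes. An unadjusted P of 0.05 or less was then found for 2 transcription, 7 processing and 2 decay genes, against 20.1% of all genes, and 1 transcription gene, CCNE2, passed the BH adjustment. SLBP, which binds the stem-loop, measured 135 and 154 CPM in DKO clones 4 and 14 and 146 and 177 CPM in WT clones 11 and 2. NPAT, the coactivator of histone gene transcription, measured 42.9 and 45.1 CPM in DKO and 41.9 and 43.6 CPM in WT. The DKO and WT libraries overlapped for both, with log2 fold changes of -0.16 (SE 0.159) and 0.04 (SE 0.138).

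The 20 S phase genes, such as PCNA and the MCM helicase genes, had a median log2 fold change of 0.0037 in DKO against WT, between -0.31 and 0.16. None had an unadjusted P of at most 0.05 in edgeR, against 2.94% of all genes. The 19 histone chaperone genes had a median of -0.06 and the 10 tested variant histone genes a median of -0.13. None was called in either list, against 1.77% of all genes. The 3 tested genes of other RNAs without a poly(A) tail had a median of -0.19, and that list of 20 summed to 7.21 and 11.6 CPM in DKO and to 12.3 and 12.1 CPM in WT. The medians of all these lists lay below that of the histone genes.

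After H2O2 the S phase list had a median log2 fold change of 0.23 with and without the block. The median over all genes was 0.0016 with the block and 0.00018 without it. The list shares CCNE2 with the transcription list, SLBP with the processing list and MCM2 with the chaperone list. Of its 20 genes, 19 were above 0. Unadjusted P was at most 0.05 for 5 of them without the block, against 7.63% of all genes, and for 8 with it, against 20.1%. None was called, against 1.75% of all genes without the block and 2.78% with it. CCNE2, which encodes cyclin E2 and was chosen after its values were seen, went from 14.9 to 27 CPM in clone 2 and from 20.7 to 29.5 CPM in clone 11, with a blocked log2 fold change of 0.67 (SE 0.156, edgeR adjusted p = 0.0412). SLBP and NPAT had blocked log2 fold changes of 0.28 (SE 0.121) and 0.30 (SE 0.125), with edgeR adjusted p of 0.228 and 0.205. The part of S phase in the histone levels was not tested.

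**Figure D5:**
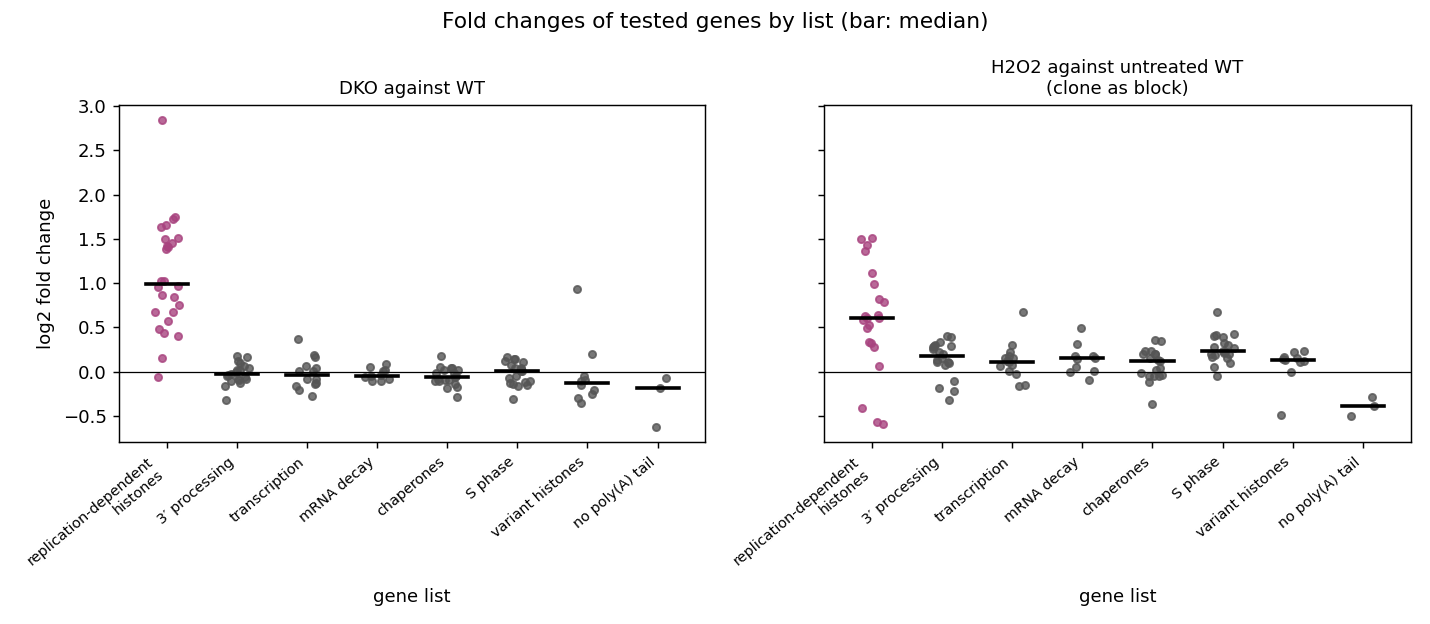
Log2 fold change of the tested genes in each list, with a bar at the median, in DKO against WT (left) and in H2O2-treated against untreated WT with clone as a block (right). In DKO the histone genes have a median of 0.99 and the S phase list of 0.0037, and after H2O2 the S phase list lies mostly above 0.

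Markers of other cell types moved in DKO at low levels. EPCAM, an epithelial marker, measured 2.95 and 2.03 CPM in DKO clones 4 and 14 and 0.665 and 0.399 CPM in WT clones 11 and 2, with a log2 fold change of 2.22 (SE 0.565). CD34, a marker of blood progenitors, measured 1.03 and 0.661 CPM in DKO and 0.177 and 0.133 CPM in WT, with 2.41 (SE 0.63). They were the 2 genes called among 9 tested markers of blood, epithelium and fibroblasts, against 1.77% of all genes. Both also stood above both WT libraries in OGG1 knockout, in which the histone sum was 1.18 times that of WT. After H2O2 none of 6 tested epithelial and fibroblast markers was called, against 1.75% of all genes without the block and 2.78% with it. VIM went from 195 to 277 CPM in clone 2 and from 357 to 498 CPM in clone 11, with a blocked log2 fold change of 0.48 (SE 0.121, edgeR adjusted p = 0.0561), whereas COL1A1 went from 22.6 to 15.5 CPM and from 27.3 to 18.4 CPM, with -0.56 (SE 0.152, edgeR adjusted p = 0.0726), and the KRT18 value was 0.40 (SE 0.137, edgeR adjusted p = 0.136). The fibroblast marker sum, which VIM dominates, went from 225 to 301 CPM in clone 2 and from 386 to 519 CPM in clone 11. The part of these markers in the histone levels was not tested.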

How the data were processed

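RNA-seq of 10 HAP1 libraries was used. The authors aligned reads to GRCh38 with HISAT2 2.2.1 and assigned them to Ensembl genes using featureCounts (Rsubread), and the deposited values are raw counts. The strand setting, the handling of reads with several alignments and the RNA selection are not given in the sources used here, so overlapping genes and near-identical copies are uncertain. Besides the members with same-strand overlaps named above, H2BC8, H3C8 and H4C8 overlap unnamed genes on the opposite strand, which matters if counting ignored strand. The untreated WT columns of the treatment table were identical copies and were used once. Testing used edgeR 4.0.16 under R 4.3.3 (TMM, filterByExpr by group, quasi-likelihood F test with legacy=TRUE, two-sided, BH over all genes tested), in a fit of 8 untreated libraries (17881 genes, 4 residual degrees of freedom) and a fit of 4 WT libraries (16997 genes, 2 residual degrees of freedom). Each WT clone gave a treated and an untreated library, so clone is also given as a block. The clone differences in treated and untreated cells had a Pearson r of 0.681 across genes. No H1, H2A, H2B, H3 or H4 sum was tested. Positions and transcript lengths are from GENCODE v44, joined by symbol for all 65 members, and promoters from RefSeq. Intervals cover counting error only, since reads carry no molecular identifiers. The edgeR tests without a block were checked on simulated counts. The simulation used the same spread for all genes, held no clone differences and set changes only in genes above a count limit. Low-count members and the blocked fit were thus not covered. Alternatives were DESeq2 1.42.0, other scalings and filters, leaving out libraries, and a term for the side of the first principal component. The comparisons of DKO with the single knockouts, the interaction, and near-identical pairs counted once were added after seeing the data. Members named are those called in any comparison and the 3 most abundant of each class, with list genes called and SLBP and NPAT. The members and lists were chosen with earlier results of these data known.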

Additional observations from a re-analysis of the deposited data

How the results depend on the processing

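The 12 members called in DKO against WT numbered 8 to 12 under other scalings, filters, tests and sets of members, and 12 with the side of the first principal component as a term. They numbered 6 to 12 when 1 library was left out. Counts for the other comparisons were less stable. In MUTYH knockout against WT 0 members were called with at least 10 counts in every library or with the DESeq2 Wald test and 1 with only the 2 groups in the fit, and in MUTYH-lacking libraries 0 with at least 10 counts and 1 with DESeq2. In OGG1-lacking libraries 2 were called without a filter. In DKO against MUTYH knockout 3 were called with at least 10 counts and 3 without members that share sequence. After H2O2, 5 were called with clone as a replicate block, 3 with the edgeR 4 test and 2 without a filter. The cause was not tested. Leaving out 1 library gave 0 to 7 for MUTYH knockout, 0 to 3 for OGG1 knockout, 0 to 5 for OGG1-lacking, 1 to 8 for MUTYH-lacking, 3 to 9 for DKO against OGG1 knockout, 0 to 4 for DKO against MUTYH knockout and 0 to 6 for H2O2. With 1 clone left out, the lone library is assumed to vary like the other groups.

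The ratio of the summed CPM to WT ranged from 1.69 to 2.79 for DKO, 1.1 to 1.81 for MUTYH knockout, 0.947 to 1.56 for OGG1 knockout and 1.12 to 2.09 for H2O2 when 1 library was left out. The members' median log2 fold change against WT ranged from 0.82 to 1.42 in DKO, 0.11 to 0.76 in MUTYH knockout, -0.073 to 0.64 in OGG1 knockout and 0.15 to 0.95 after H2O2. Values that changed sign were those of H3C10 (-0.60 to 0.80), H3C14 (-0.10 to 0.90) and H3C15 (-0.018 to 0.91) in DKO, and H2AC11 (-0.16 to 1.07), H2AC19 (-0.19 to 0.78), H2BC21 (-0.24 to 2.0) and H3C10 (-0.30 to 1.10, and -0.10 without treated WT clone 11) after H2O2. Of the 10 highest members per kb, 6 stayed with the longest annotated transcript as the length. With 1 to 12 counts per library, members such as H2BC7 cannot resolve small differences.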
